A study of Mus musculus with 10 samples.

Results

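Glucose use and the response to low oxygen were followed through 41 genes, which were chosen by name: the glucose and fructose transporters, the enzymes from hexokinase to lactate dehydrogenase with their isozymes, the kinases that switch off pyruvate dehydrogenase, the lactate carriers, the hypoxia-inducible factors with the enzymes that sense oxygen, and a few genes of fructose use and sugar sensing. They were chosen with earlier results of these data known. All 41 were found among the 28585 genes of the deposited count table. Of the 41, 40 had enough counts to be tested. The one left out was Fbp1, the fructose bisphosphatase of gluconeogenesis, which lay between 0 and 0.113 CPM, the count scaled to library size, in the 10 libraries.

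The study set microglia, the resident phagocytes of the brain, against CD11c+ cells that enter the brain after ischemia, all sorted by fluorescence from the ipsilateral, ischemic hemisphere of mice. The 3 microglia libraries (replicates 39, 40 and 41) came from female CX3CR1CreERT2:Rosa26-tdT mice of 13 to 14 weeks, in which an inducible Cre under Cx3cr1 turns on a red reporter, so that the cells were picked by that promoter alone. The 3 parabiotic CD11c libraries (replicates 3, 11 and 15) came from C57BL/6 mice of 15 to 16 weeks, labelled female for replicates 3 and 11, whose circulation was joined to that of a Tg(Itgax-Venus)1Mnz partner, in which the CD11c promoter drives a yellow protein. A cell of this group carries the reporter of the partner. The 4 transgenic CD11c libraries (replicates 23, 24, 26 and 27) came from female Tg(Itgax-Venus)1Mnz mice of 13 to 14 weeks, in which resident brain cells that use the CD11c promoter are labelled too. Parabiotic replicate 15 has no cell type or sex in its labels and was placed by its title. The labels do not say that libraries of a group come from separate animals, so p-values measure only the spread between these samples. Microglia and parabiotic mice differed in genotype, reporter and age as well as in cell type, and these cannot be told apart. Microglia and transgenic mice differed in genotype and reporter, and transgenic and parabiotic mice in genotype, age and parabiosis. In those comparisons too, these differences cannot be told apart from cell type.

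Glycolysis splits glucose into pyruvate in the cytosol. Pyruvate then either enters the mitochondrion through pyruvate dehydrogenase or is reduced to lactate, which leaves the cell on monocarboxylate carriers. Most steps are served by several isozymes encoded by separate genes, which differ in kinetics and control. When oxygen falls, the prolyl hydroxylases stop marking the alpha subunits Hif1a and Epas1 for destruction, and these pair with Arnt on promoters and enhancers that hold an ACGTG or GCGTG core, among them those of many glycolytic genes. Activated phagocytes raise glycolysis also without low oxygen, and Hif1a protein is largely controlled after transcription, so transcript levels do not report its activity.

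Library totals ran from 31534625 to 41730688 counts. Levels are given as CPM after scaling between libraries, in the order of replicates 39, 40 and 41 for microglia, 3, 11 and 15 for parabiotic and 23, 24, 26 and 27 for transgenic CD11c cells. Fold changes are log2 values from edgeR's quasi-likelihood test. Their standard errors were derived as the size of the log2 fold change over the square root of the test's F statistic. A gene was called at a Benjamini-Hochberg adjusted p under 0.05 over all 15151 genes tested. All 8 microglia markers were detected in every group, and their summed level was 17830 to 20480 CPM in microglia, 2052 to 3586 in parabiotic and 5889 to 17020 in transgenic libraries. The 9 dendritic cell markers summed to 180.5 to 273.3, 19360 to 24420 and 3072 to 12360 CPM in turn. The first list was thus highest in microglia and the second in parabiotic cells, with the transgenic group between them. The 8 astrocyte markers summed to 108.3 to 181.6 CPM in microglia, 7.04 to 10.62 in parabiotic and 26.77 to 58.83 in transgenic libraries. For the 8 neuron markers the sums were 8.61 to 13.45, 0.546 to 1.83 and 1.92 to 4.73 CPM, with Slc17a7 at 0 in the parabiotic group. The astrocyte and neuron sums differed between the same groups as the genes below. The 7 oligodendrocyte markers summed to 211.8 to 235.5, 231.0 to 280.5 and 153.7 to 235.8 CPM in turn. For the 8 endothelial markers the sums were 51.28 to 54.69, 39.27 to 49.03 and 28.79 to 50.37 CPM. The 9 neutrophil markers summed to 187.6, 1109 and 343.8 CPM in parabiotic replicates 3, 11 and 15. Their sums were 412.2 to 491.1 CPM in microglia and 120.6 to 322.4 in transgenic libraries. The 6 monocyte markers summed to 837 to 1219 CPM in microglia, 1540 to 1951 in parabiotic and 702 to 2534 in transgenic libraries. The part of other cell types in the results was not tested. In libraries made from many sorted cells, fewer cells of a type and less RNA per cell cannot be told apart.

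In parabiotic CD11c cells against microglia, calls fell on single transporters and isozymes, in both directions. 6 of the 40 genes tested were called higher (Hk1, Pfkp, Pgam1, Eno2, Pdha1 and Epas1) and 8 lower (Slc2a5, Slc2a6, Hk2, Pfkl, Pfkfb3, Ldhb, Pdk1 and Mlxipl). That is 15% higher and 20% lower, beside 17.4% and 17.9% of all genes tested, so the share of genes called was near the background. The median log2 fold change of the 40 was -0.21, against -0.02 over all genes, and the median size of the change was 0.60 in both. In transgenic CD11c cells against microglia, 2 of the 40 were higher (Pfkp and Epas1) and 7 lower (Slc2a5, Hk2, Pfkfb3, Ldhb, Pdk1, Mlxipl and Khk), which is 5% and 17.5% beside a background of 8.88% and 4.79%. The 7 fell to 0 without microglia replicate 39 or 40 and with a term for the library numbers of transgenic replicates 26 and 27, to 1 without microglia replicate 41, to 2 with only these groups in the fit and to 4 without a low-count filter or without parabiotic replicate 15. All 7 were kept when transgenic replicates 26 and 27 were left out together, a choice made after seeing the data. The median of the 40 was -0.07 against 0.02 over all genes. Transgenic against parabiotic CD11c cells gave 5 higher (Slc2a5, Pfkfb3, Ldhb, Pdk1 and Mlxipl) and 1 lower (Epas1), which is 12.5% and 2.5% beside 7.63% and 2.42%, with medians of 0.10 and 0.04. Each group enters 2 of these comparisons, so they are not independent of each other. The 40 genes were chosen with earlier results of these data known, so their shares beside the background do not test the list.

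**Figure D1:**
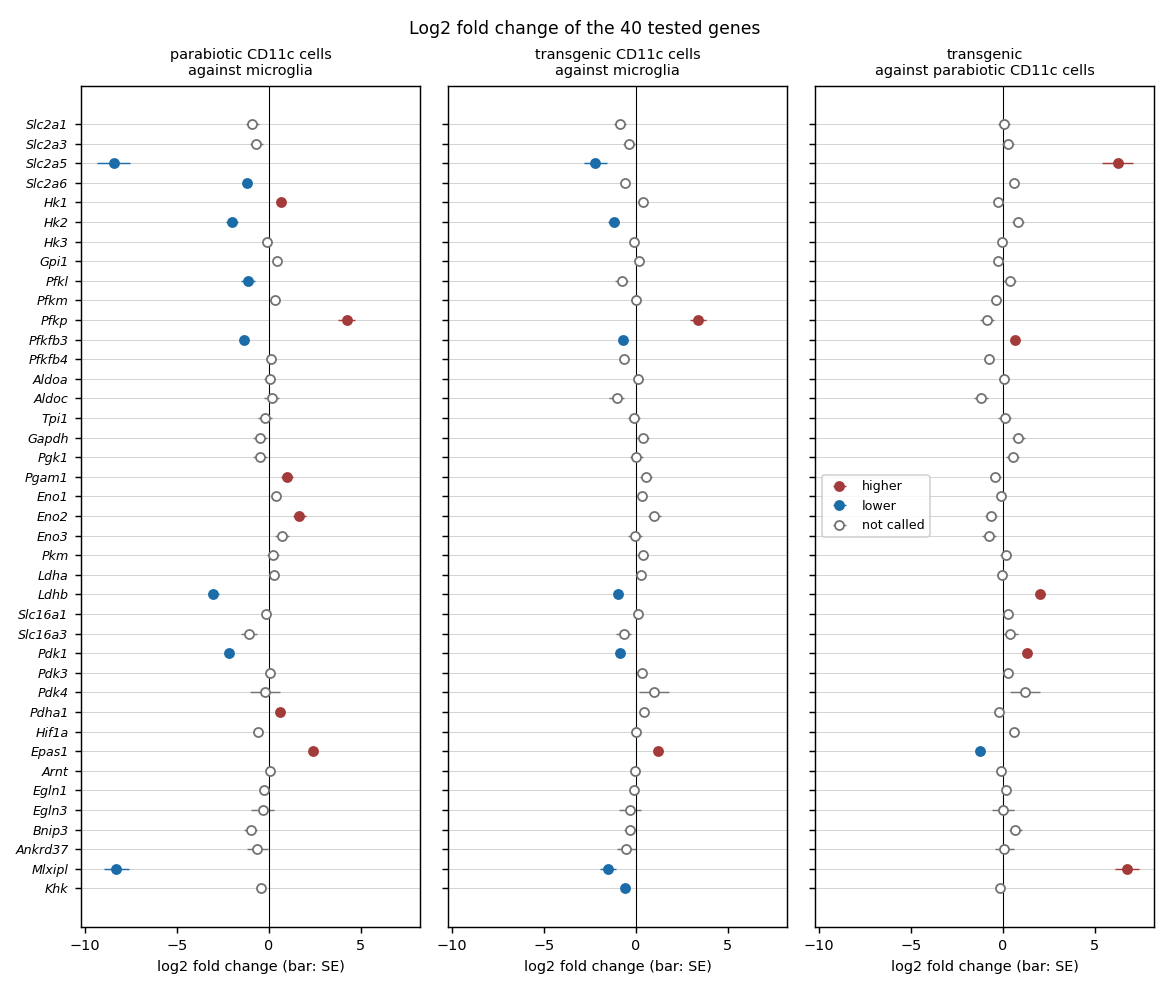
Log2 fold changes of the 40 tested genes in the 3 comparisons, on one axis range, with bars of 1 standard error. Filled points are called at an adjusted p under 0.05 (red higher, blue lower) and open points are not. Slc2a5 at -8.45 and Mlxipl at -8.29 stand apart in parabiotic CD11c cells against microglia, and Pfkp at 4.25 is the highest value there.

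Among the transporters, the fructose carrier gene Slc2a5 (GLUT5; chromosome 4, 150119283 to 150144169 in GENCODE M21 on GRCm38) was nearly absent from parabiotic CD11c cells. It stood at 261, 269 and 188 CPM in microglia, at 0.316, 1.28 and 0.455 CPM in parabiotic and at 72.6, 90.2, 36.9 and 8.50 CPM in transgenic CD11c cells. The 3 groups did not overlap, and the transgenic libraries were widely spread, with replicate 27 lowest. The parabiotic level was 350-fold below microglia (log2 -8.45 ± 0.92, edgeR adjusted p = 5.4e-05) and 76.2-fold below transgenic cells (log2 6.25 ± 0.84 for transgenic against parabiotic, adjusted p = 0.000911). In transgenic cells it was 4.60-fold below microglia (log2 -2.20 ± 0.61, adjusted p = 0.0362), a call that was lost without any one of microglia replicates 39, 40 or 41, parabiotic replicate 15 or transgenic replicate 26, at adjusted p = 0.0557 to 0.121. Transgenic replicates 26 and 27 carry library numbers apart from the other 8. With a term for that difference the last value was -1.56 with adjusted p = 0.134. The call was also lost without a low-count filter (0.133) and with only these groups in the fit (0.0609). With the library number term, the transgenic value rests on the other transgenic libraries alone. Leaving replicates 26 and 27 out together gave the same -1.56, but the call was kept (adjusted p = 0.00698). The cause of that difference was not tested.

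The other 3 transporters moved less. Slc2a6 (GLUT6), which is abundant in leukocytes, stood at 181, 139 and 179 CPM in microglia against 84.6, 66.8 and 67.3 in parabiotic cells, with no overlap (log2 -1.19 ± 0.21, edgeR adjusted p = 0.00125). Its transgenic values of 143, 107, 108.5 and 83.7 CPM overlapped those of microglia (-0.59 ± 0.19, adjusted p = 0.0627, and 0.0258 without transgenic replicate 23). Against parabiotic cells the transgenic value was 0.60 ± 0.20 (adjusted p = 0.0822), and it was called at 0.018 without transgenic replicate 27.

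Slc2a1 (GLUT1), the basal glucose carrier of most cells, stood at 85.9, 186 and 227 CPM in microglia and at 114, 75.6 and 78.0 CPM in parabiotic cells. Microglia replicate 39 lay inside the parabiotic range, and the difference of -0.90 ± 0.36 missed the threshold (edgeR adjusted p = 0.0745). Without replicate 39 it was -1.21 with adjusted p = 0.0183. Slc2a3 (GLUT3), a high-affinity glucose carrier, had 14.8 to 20.2 CPM in microglia and 6.26, 17.5 and 9.87 CPM in parabiotic cells (-0.67 ± 0.34, adjusted p = 0.149), and was called lower without parabiotic replicate 11 (-1.14, adjusted p = 0.0203).

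Hexokinase traps glucose in the cell by phosphorylation. Hk2, the inducible form that binds mitochondria (chromosome 6, 82725025 to 82774454), was 4.06-fold lower in parabiotic cells. Its levels were 182, 235 and 239 CPM in microglia, 50.1, 51.1 and 60.4 CPM in parabiotic and 133, 122, 82.0 and 45.3 CPM in transgenic cells. Microglia lay above all other libraries, and transgenic replicate 27 lay below the parabiotic range. The log2 fold change was -2.02 ± 0.33 in parabiotic (edgeR adjusted p = 0.000838) and -1.20 ± 0.30 in transgenic cells (adjusted p = 0.0244). The transgenic call was lost without any one of the 3 microglia libraries (adjusted p = 0.0597 to 0.0981). It was lost also with the library number term (-0.78, adjusted p = 0.0765) or only these groups in the fit (0.0611). It was kept without transgenic replicates 26 and 27 together (-0.79, adjusted p = 0.0047). Between transgenic and parabiotic cells the difference was 0.83 ± 0.31 (adjusted p = 0.124), and 1.06 with adjusted p = 0.00467 without transgenic replicate 27.

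Hk1, the constitutive form, went the other way in parabiotic cells, with 38.98, 44.6 and 47.2 CPM in microglia and 73.9, 63.8 and 66.1 CPM in parabiotic libraries, which did not overlap. The log2 fold change was 0.64 ± 0.17 (edgeR adjusted p = 0.0126), and the call was lost without microglia replicate 39 or 40 or parabiotic replicate 3, at 0.0505 to 0.0611. In transgenic cells (58.4, 62.0, 44.3 and 63.1 CPM) the value was 0.39 ± 0.16 with adjusted p = 0.12, and it was called only when replicate 26 was left out (0.47, adjusted p = 0.0465) among the single libraries. Hk3, a form of myeloid cells, had 103 to 165 CPM in microglia, 107 to 157 in parabiotic and 115 to 147 in transgenic libraries. These ranges lay over each other, and the fold changes of Hk3 were -0.10, -0.12 and -0.02 in the 3 comparisons.

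The next steps commit sugar to glycolysis. Phosphofructokinase has liver (Pfkl), muscle (Pfkm) and platelet (Pfkp) subunits, and Pfkp (chromosome 13, 6579768 to 6648777) showed the largest rise among the 40 genes. It stood at 5.28, 6.79 and 9.56 CPM in microglia, at 174, 129 and 109 CPM in parabiotic and at 73.2, 78.0, 30.9 and 122 CPM in transgenic cells. Every CD11c library exceeded every microglia library. Pfkp was 19.0-fold higher in parabiotic cells (log2 4.25 ± 0.46, edgeR adjusted p = 5.21e-05) and 10.6-fold higher in transgenic cells (3.40 ± 0.43, adjusted p = 0.000716). The library number term gave 3.39 with adjusted p = 0.00174 for the latter. Transgenic against parabiotic cells differed by -0.85 ± 0.37 (adjusted p = 0.189), with replicate 27 inside the parabiotic range and -1.17 at adjusted p = 0.0422 without it. Of the exon bases of Pfkp, 5.6% overlap those of Pitrm1.

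Pfkl, the form with the most counts in microglia, stood at 154, 315 and 379 CPM there and at 128, 117 and 143 CPM in parabiotic cells (log2 -1.13 ± 0.39, edgeR adjusted p = 0.041). The groups did not overlap, but microglia replicate 39 lay close to the parabiotic range. The call was lost without any one of microglia replicates 40 and 41, parabiotic replicates 3, 11 and 15 and transgenic replicate 23, at adjusted p = 0.0511 to 0.148, and also by limma-voom (0.0689) and without a low-count filter (0.0732). Transgenic cells had 180, 218, 196 and 74.5 CPM, which overlapped both other groups. Pfkm lay between 4.19 and 9.98 CPM in all 10 libraries and was not called.

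The bifunctional enzyme encoded by Pfkfb3 makes fructose 2,6-bisphosphate, the activator of phosphofructokinase. Pfkfb3 stood at 376, 386 and 432 CPM in microglia, at 140.0, 173 and 149 CPM in parabiotic and at 260, 295, 171 and 239 CPM in transgenic cells. Microglia were again above all CD11c libraries, and transgenic replicate 26 fell into the parabiotic range. The log2 fold change was -1.37 ± 0.20 in parabiotic cells (edgeR adjusted p = 0.000349) and -0.72 ± 0.18 in transgenic cells (adjusted p = 0.0245). The latter call was lost without any one of the 3 microglia libraries (0.074 to 0.0781). It was lost also with the library number term (-0.52, adjusted p = 0.10) or only these groups in the fit (0.0641). It was kept without transgenic replicates 26 and 27 together (-0.53, adjusted p = 0.0191). Transgenic exceeded parabiotic cells by 0.65 ± 0.19 (adjusted p = 0.0493). That call was lost without any one of the 3 microglia and 3 parabiotic libraries and transgenic replicates 23 and 24 (0.0696 to 0.203), and also with RLE scaling (0.0535), limma-voom (0.0536), no low-count filter (0.0764) or only these groups in the fit (0.112). The library number term gave 0.85 with adjusted p = 0.0104. Its paralogue Pfkfb4 had 68.2 to 75.0 CPM in microglia, 67.9 to 95.8 in parabiotic and 28.6 to 58.9 in transgenic libraries and was called in no comparison, with -0.90 at adjusted p = 0.048 for transgenic against parabiotic cells without transgenic replicate 24.

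Gpi1, Aldoa and Tpi1, which carry the sugar through the steps that split it, were not called. Aldoa, the main aldolase, stood at 261, 539 and 723 CPM in microglia, 583, 472 and 517 CPM in parabiotic and 487, 525, 686 and 487 CPM in transgenic cells. Replicates of microglia differed more among themselves than the groups did, and the fold changes of Aldoa were 0.05, 0.10 and 0.06. Tpi1 was similar, at 94.5, 241 and 350 CPM in microglia within which all 7 CD11c libraries fell. Gpi1 was at 71.0, 98.7 and 121 CPM in microglia and 135, 126 and 131 CPM in parabiotic cells, with 0.43 ± 0.18 and adjusted p = 0.0945 by edgeR (0.0296 without microglia replicate 41). Aldoc, the brain form of aldolase, lay at 2.05 to 12.3 CPM in all libraries. Aldoc was called lower in transgenic cells only when replicate 24 was left out among the single libraries, at -1.38 against microglia (adjusted p = 0.0348) and -1.53 against parabiotic cells (0.0344).

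In the lower part of the pathway, 2 of 7 genes were called higher in parabiotic cells against microglia, and edgeR called 0 of 7 in either other comparison. There 1 of 7 had an unadjusted p under 0.05 in each, while DESeq2 called 1 in transgenic cells against microglia and 0 in transgenic against parabiotic cells, and limma-voom called 0 in both. Eno2, the enolase known from neurons, stood at 2.54, 3.53 and 3.45 CPM in microglia, at 11.98, 10.6 and 7.47 CPM in parabiotic and at 5.14, 4.50, 4.78 and 11.1 CPM in transgenic cells. The 3 microglia libraries were the lowest of the 10. The difference was 1.66 ± 0.37 in parabiotic cells (edgeR adjusted p = 0.00556). Transgenic cells differed from microglia by 1.01 ± 0.35 (adjusted p = 0.0764), and from parabiotic cells by -1.05 with adjusted p = 0.0137 once replicate 27 was left out.

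Pgam1, a phosphoglycerate mutase, stood at 3.02, 6.02 and 7.34 CPM in microglia and 12.03, 9.73 and 10.4 CPM in parabiotic cells (0.97 ± 0.33, edgeR adjusted p = 0.0393). The groups did not overlap, but the call was lost without microglia replicate 39 or 40 or any one of the parabiotic libraries (0.0665 to 0.117), and also with upper quartile scaling (0.0534) or no low-count filter (0.0532). Eno1, the general enolase, had 116, 167 and 226 CPM in microglia and 237, 218 and 217 CPM in parabiotic cells (0.40 ± 0.21, adjusted p = 0.173), and was called without microglia replicate 41 (0.65, adjusted p = 0.031). The last enolase, Eno3 of muscle, had 3.99 to 17.9 CPM over all libraries. Pkm, the pyruvate kinase gene whose splice forms gene counts do not separate, stood at 342, 664 and 912.5 CPM in microglia, 864, 737 and 641 CPM in parabiotic and 593, 656, 926 and 1132 CPM in transgenic cells. These ranges overlapped, with fold changes of 0.22, 0.37 and 0.15.

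Several of these genes have near-copies in the genome. Gapdh stood at 9.98 to 33.3 CPM and Pgk1 at 3.84 to 12.2 CPM. Of the stretches of 50 bases in their transcripts, 82.5% and 68.0% also occur in other annotated genes, for Gapdh in 213 pseudogenes. The share was 72.2% for Eno1, 62.4% for Bnip3, 41.5% for Pgam1, 34.4% for Pkm, 27% for Ldhb (with 1 pseudogene), 25.3% for Gpi1, 17.1% for Pfkp (with Pitrm1), 16.9% for Pdha1 and 16.6% for Ldha. It was 0 for Slc2a5. For Pfkp and Pdha1 the stretches lie all or mostly in Pitrm1 (17.1%) and Map3k15 (16.5%). These are not copies but genes whose exons overlap those of Pfkp and Pdha1 on the opposite strand. The labels do not say how reads with several matches were treated in counting. The levels of Gapdh, Pgk1, Eno1, Bnip3, Pgam1, Pkm, Ldhb, Gpi1, Pfkp, Pdha1 and Ldha are therefore uncertain to these extents, also relative to other genes. The part of copies or overlapping genes in these levels was not tested.

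At lactate dehydrogenase, whose 2 subunits interconvert pyruvate and lactate, Ldhb was called in all 3 comparisons and Ldha in none. Ldhb, the heart form, stood at 289, 275 and 276 CPM in microglia (chromosome 6, 142490249 to 142507957). In parabiotic cells it was at 23.9, 35.1 and 45.1 CPM and in transgenic cells at 135, 137, 196 and 103 CPM. The 3 groups did not overlap. Ldhb was 8.07-fold lower in parabiotic cells (log2 -3.01 ± 0.28, edgeR adjusted p = 1.9e-05) and 1.96-fold lower in transgenic cells (-0.97 ± 0.24, adjusted p = 0.0223), and transgenic exceeded parabiotic cells by 2.04 ± 0.26 (adjusted p = 0.000615). The call against microglia in transgenic cells was lost without any one of the 3 microglia libraries (0.0577 to 0.0842). It was lost also with the library number term (-1.05, adjusted p = 0.0571). It was kept without transgenic replicates 26 and 27 together (-1.05, adjusted p = 0.00705).

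Ldha, the muscle form, did not follow Ldhb. It stood at 269, 457 and 630 CPM in microglia, 590, 535 and 552 CPM in parabiotic and 448, 508, 620 and 586 CPM in transgenic cells, all CD11c libraries within the range of microglia. Its fold changes were 0.31 ± 0.26, 0.26 ± 0.24 and -0.05 ± 0.24, with edgeR adjusted p of 0.391, 0.487 and 0.937. The lactate importer gene Slc16a1 (MCT1) lay at 37.3 to 62.6 CPM throughout. Slc16a3 (MCT4), the carrier for lactate export, stood at 88.3, 249 and 324 CPM in microglia and 136, 82.8 and 96.5 CPM in parabiotic cells (-1.07 ± 0.43, adjusted p = 0.0787), with microglia replicate 39 inside the parabiotic range. It was called lower without microglia replicate 39 (-1.45, adjusted p = 0.0129) or transgenic replicate 27 (-1.06, 0.0482).

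**Figure D2:**
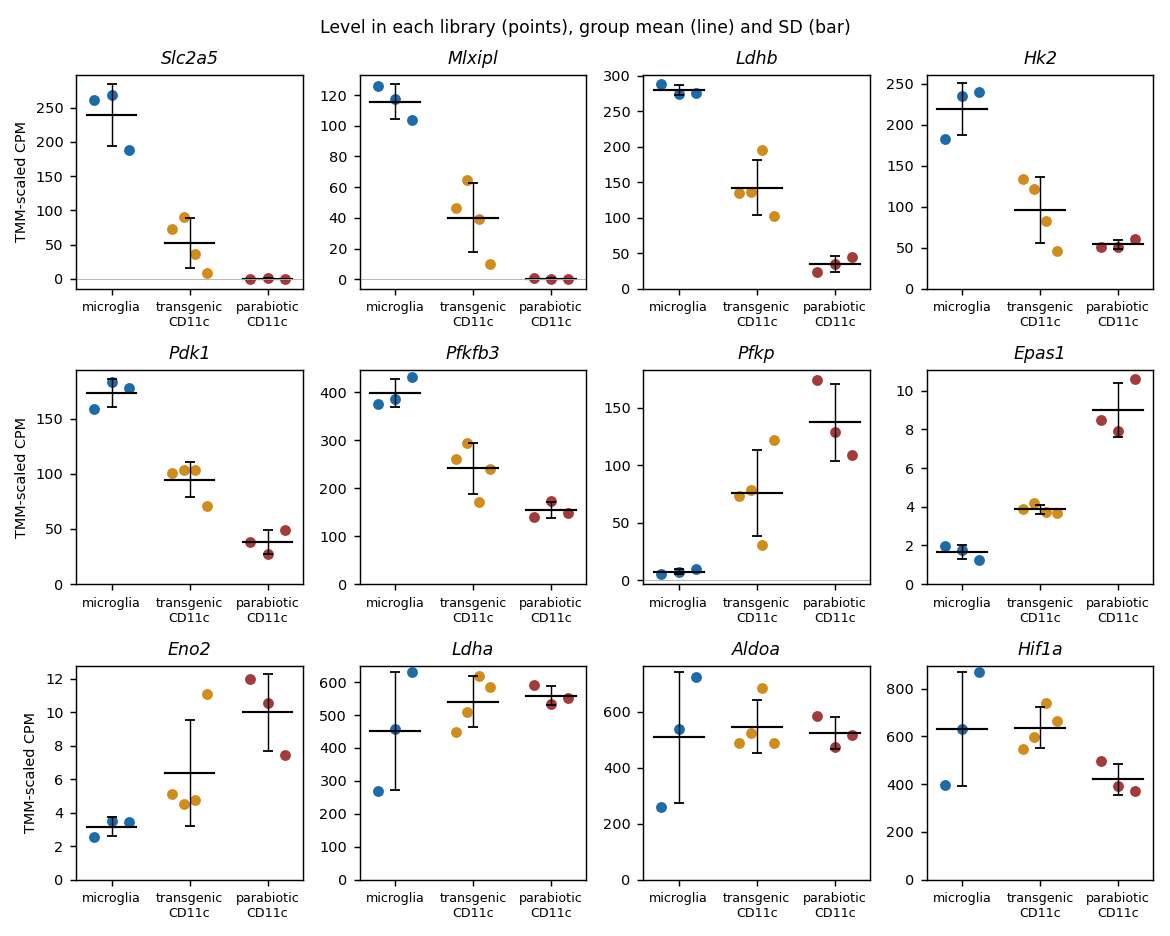
CPM of the genes that the results turn on, one panel a gene, with 1 point a library on a linear axis from 0, the group mean as a line and the SD as a bar. Slc2a5, Mlxipl, Ldhb, Hk2, Pdk1 and Pfkfb3 were highest in microglia and lowest or nearly lowest in parabiotic CD11c cells, and Pfkp the reverse.

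At the entry to the mitochondrion, Pdk1 fell in both kinds of CD11c cell. Its product phosphorylates and so blocks pyruvate dehydrogenase. Pdk1 (chromosome 2, 71873224 to 71903858) stood at 159, 183 and 178 CPM in microglia, at 37.9, 27.5 and 48.9 CPM in parabiotic and at 100.7, 104, 103 and 70.6 CPM in transgenic cells. No group overlapped another. The parabiotic level was 4.54-fold below microglia (log2 -2.18 ± 0.23, edgeR adjusted p = 4.47e-05). The transgenic level was 1.83-fold below (-0.87 ± 0.20, adjusted p = 0.0187). The latter call was lost without any one of the 3 microglia libraries (0.0546 to 0.0783). It was lost also with the library number term (-0.76, adjusted p = 0.0841). It was kept without transgenic replicates 26 and 27 together (-0.77, adjusted p = 0.0254). Transgenic exceeded parabiotic cells by 1.31 ± 0.21 (adjusted p = 0.00285).

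Pdk3, another kinase of the family, had 34.4 to 46.9 CPM in microglia, 38.9 to 41.4 in parabiotic and 35.8 to 60.6 in transgenic libraries and was not called. Pdk4, which is induced by fasting in muscle and liver, was near the limit of detection at 0.115 to 3.95 CPM. Pdha1, a subunit of pyruvate dehydrogenase itself, stood at 54.6, 48.9 and 48.2 CPM in microglia and 78.7, 79.9 and 76.0 CPM in parabiotic cells, which did not overlap (0.63 ± 0.17, edgeR adjusted p = 0.016). That call was lost without microglia replicate 40 or 41 (0.052 to 0.0663). In transgenic cells Pdha1 was at 60.2, 61.0, 62.5 and 89.1 CPM, all above microglia, with 0.43 ± 0.16 and adjusted p = 0.0964.

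Among the oxygen-responsive factors only Epas1 (HIF-2 alpha; chromosome 17, 86753700 to 86833410) was called, and it was so in all 3 comparisons. It stood at 1.95, 1.78 and 1.27 CPM in microglia, 8.50, 7.94 and 10.6 CPM in parabiotic and 3.88, 4.21, 3.74 and 3.68 CPM in transgenic cells. The groups did not overlap and the replicates of each lay close together. Epas1 was 5.40-fold higher in parabiotic cells (log2 2.43 ± 0.26, edgeR adjusted p = 4.87e-05), 2.32-fold higher in transgenic cells (1.22 ± 0.24, adjusted p = 0.00876) and lower in transgenic than in parabiotic cells (-1.22 ± 0.23, adjusted p = 0.00603). These calls were kept without each single library and with the library number term.

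Hif1a was far more abundant, at 395, 631 and 871 CPM in microglia, 495, 393 and 373 CPM in parabiotic and 546, 596, 742 and 664.5 CPM in transgenic cells. Parabiotic cells against microglia gave -0.59 ± 0.26 (edgeR adjusted p = 0.0984), and -0.84 with 0.0161 without microglia replicate 39, the lowest of its group. Arnt, the shared partner, had 52.0 to 104 CPM over all libraries and fold changes of 0.07, -0.02 and -0.09. Egln1 (PHD2), the main oxygen sensor, stood at 47.4, 86.4 and 94.5 CPM in microglia and 61.3, 58.9 and 68.4 CPM in parabiotic cells, and was called lower only without microglia replicate 39 (-0.53, adjusted p = 0.0309) among all settings. Egln3 (PHD3), itself a hypoxia target, stood at 1.61, 9.98 and 13.9 CPM in microglia, 6.15 to 7.26 in parabiotic and 2.46 to 8.68 in transgenic libraries. The mitophagy receptor gene Bnip3 stood at 5.65, 13.2 and 16.3 CPM in microglia and 5.89, 5.38 and 6.44 CPM in parabiotic cells (-0.99 ± 0.36, adjusted p = 0.0517). Bnip3 was called without microglia replicate 39 (-1.33, adjusted p = 0.00658) or transgenic replicate 26 (-0.96, 0.0443). Ankrd37, a sensitive hypoxia target, was at 0.585 to 2.47 CPM and was not called.

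The sugar-sensing factor gene Mlxipl (ChREBP; chromosome 5, 135089890 to 135138382), which drives glycolytic and lipogenic genes when sugar is plentiful, behaved like Slc2a5. It stood at 126, 117 and 104 CPM in microglia, at 0.517, 0.335 and 0.243 CPM in parabiotic and at 46.6, 64.8, 39.04 and 10.2 CPM in transgenic cells. No group overlapped another. The parabiotic level was 313-fold below microglia (log2 -8.29 ± 0.69, edgeR adjusted p = 1.12e-05), and transgenic exceeded parabiotic cells by 6.76 ± 0.65 (adjusted p = 0.000117). Transgenic cells were 2.88-fold below microglia (-1.53 ± 0.44, adjusted p = 0.0428). This call was lost without any one of the 3 microglia and 3 parabiotic libraries and transgenic replicates 23 and 26 (0.0532 to 0.142). It was lost also with the library number term (-1.05, adjusted p = 0.209), no low-count filter (0.104) or only these groups in the fit (0.0851). It was kept without transgenic replicates 26 and 27 together (-1.06, adjusted p = 0.00238).

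Khk, the ketohexokinase that phosphorylates fructose after its uptake, stood at 31.0, 26.4 and 21.9 CPM in microglia, 20.4, 18.9 and 20.4 CPM in parabiotic and 17.97, 18.8, 16.8 and 16.4 CPM in transgenic cells. Every microglia library exceeded every CD11c library, by far less than for Slc2a5. The change was called in transgenic cells (-0.59 ± 0.16, edgeR adjusted p = 0.032). This call was lost without microglia replicate 39 or 40 or any one of the parabiotic libraries (0.0525 to 0.154). It was lost also with the library number term (-0.52, adjusted p = 0.0979), no low-count filter (0.0627) or only these groups in the fit (0.0839). It was kept without transgenic replicates 26 and 27 together (-0.53, adjusted p = 0.0466). In parabiotic cells the change was -0.41 ± 0.17 (adjusted p = 0.085, and 0.0463 without microglia replicate 41).

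Shares within each isozyme family put these changes on one scale. Levels of different genes were compared per kilobase of exon, and each gene was expressed as a percent of its family in each library, shown as the group's mean with its SD (n = 3, 3 and 4 in the order microglia, parabiotic, transgenic). Ldhb held 57.8% ± 10.8 of lactate dehydrogenase in microglia, 11.6% ± 3.46 in parabiotic and 35.5% ± 5.87 in transgenic cells, with Ldha the rest. Pfkp held 1.25% ± 0.269, 31.7% ± 6.21 and 19.8% ± 15.5 of phosphofructokinase, and Pfkl held 93.6% ± 2.72, 60.3% ± 5.92 and 74.0% ± 15.4. The transgenic spread came from the library numbered 27, in which Pfkp held 42.4%, against 6.80% to 15.7% in the other transgenic libraries.

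In the hexokinase family the share of Hk2 was lower, and those of Hk3 and Hk1 higher, in every CD11c library than in any microglia library. Hk2 held 46.2% ± 1.997, 17.6% ± 3.78 and 27.2% ± 9.74 in turn, and Hk3 held 47.3% ± 2.60, 67.1% ± 4.83 and 61.0% ± 8.99. The share of Hk1 was 6.49% ± 0.648, 15.3% ± 1.07 and 11.8% ± 2.53. Among the transporters Slc2a5 led in microglia with 41.1% ± 8.96 and held 0.429% ± 0.356 in parabiotic cells, where Slc2a1 led with 50.6% ± 3.41. In transgenic cells Slc2a6 led with 45.9% ± 8.87.

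Of the kinases of pyruvate dehydrogenase, Pdk1 held 59.3% ± 3.90 in microglia and 23.1% ± 4.46 in parabiotic cells, and Pdk3 held 39.9% ± 4.09 and 75.7% ± 4.67. Pfkfb3 held 78.4% ± 1.89 of its pair in microglia, 56.2% ± 6.04 in parabiotic and 77.2% ± 4.92 in transgenic cells. Aldolase and enolase kept their leading gene: Aldoa held 98.1% ± 1.32, 98.3% ± 0.240 and 99.3% ± 0.374, and Eno1 held 83.1% ± 5.58, 79.4% ± 3.35 and 85.7% ± 4.66.

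With 3 against 3 libraries an exact two-sided permutation test cannot go below p = 0.10, and with 3 against 4 not below 0.0571. Over the 66 share tests run, the lowest Benjamini-Hochberg adjusted p was 0.179, so no share passed a threshold of 0.05 and the shares are given as values. The leading gene was the same with the union of exons, the longest transcript or no length correction in 20 of 24 combinations of the 8 families and 3 groups. In the other 4 it depended on the length used. Without any length the lead went to Hk2 in microglia, to Pfkp in parabiotic and to Pdk1 in transgenic cells. In microglia Ldhb led Ldha only per kilobase of union exon, while Ldha led with either other length setting.

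**Figure D3:**
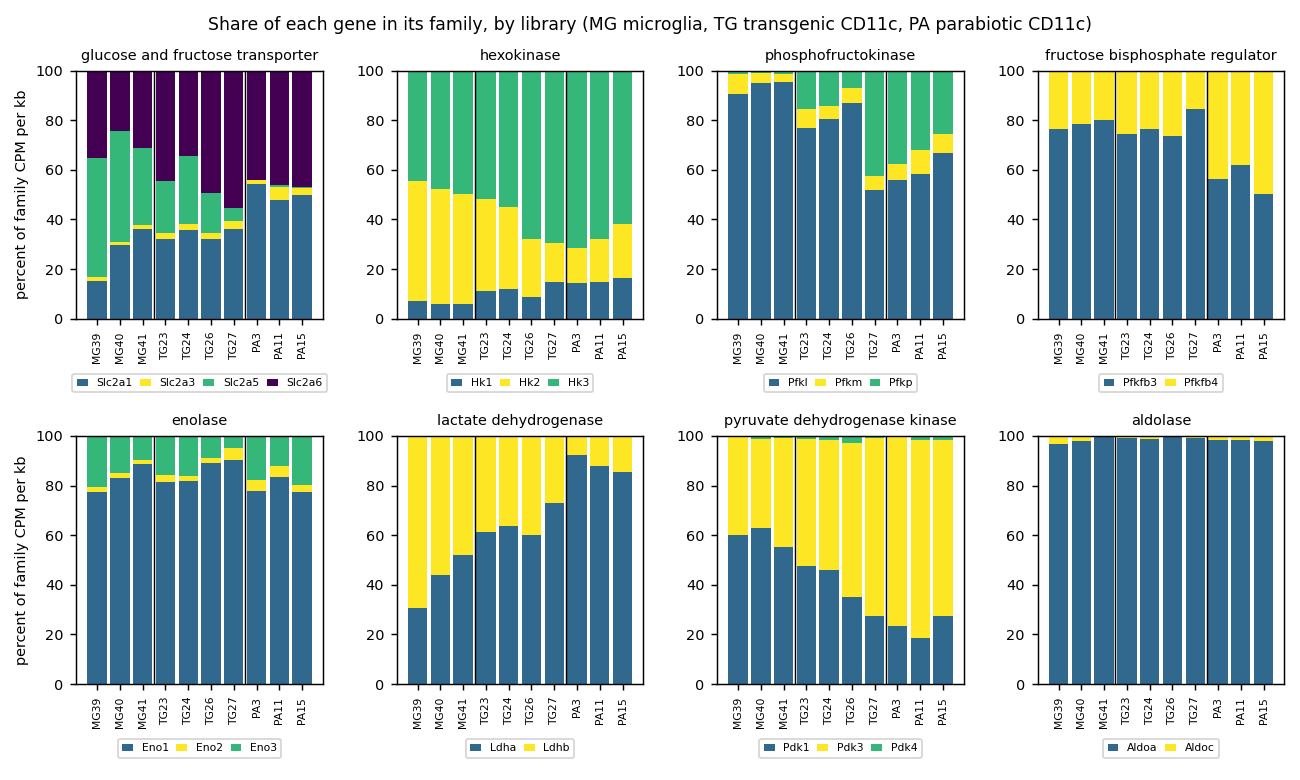
Share of each gene in its isozyme family, in percent of the family's CPM per kilobase of exon, with 1 stacked bar a library from 0 to 100. Microglia bars show large Ldhb, Hk2, Pdk1, Pfkl and Slc2a5 parts, which are smaller in the parabiotic bars, and the aldolase and enolase bars differ little.

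Ranked by CPM per kilobase of exon over the 41 genes, the mean level was highest for Ldhb (178), Aldoa (174.5), Ldha (136.5), Pkm (128) and Hif1a (107) in microglia. In parabiotic cells the order was Aldoa (180.1), Ldha (169), Pkm (149), Tpi1 (71.5) and Hif1a (71.3), with Ldhb in place 10, at 22.1. In transgenic cells it was Aldoa (188), Ldha and Pkm (163 and 165), Hif1a (108) and Ldhb (90.8). In each group the ranges of Aldoa, Ldha and Pkm per kilobase overlapped between libraries. For Aldoa in microglia the replicates ran from 261 to 723 CPM. These ranges do not compare the genes within a library, and the order of the genes was not tested. Ldhb lay among these genes in microglia and below all of them in parabiotic cells. Its first place in microglia depends on the length used. The union of exons and the longest transcript have 1570 and 1304 bases for Ldhb. They have 2911 and 1549 for Aldoa, and 3310 and 1815 for Ldha.

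Promoter sequence is shown for 6 genes that differed strongly between parabiotic cells and microglia, with Ldha beside Ldhb since these isozymes went apart. They were picked with their values known. They are shown to set the hypoxia response core beside the expression values: capitals mark ACGTG or GCGTG on either strand, with CACGTG, which holds the core on both strands, counted once. The bases run 5′ to 3′ on the strand of the gene, from RefSeq on GRCm38.p6, and cover up to 250 bases before a start site, less any base inside an exon of the gene. The start site used for Ldha lies inside the annotated gene.
Ldha, chr7:46845554-46845803, plus strand: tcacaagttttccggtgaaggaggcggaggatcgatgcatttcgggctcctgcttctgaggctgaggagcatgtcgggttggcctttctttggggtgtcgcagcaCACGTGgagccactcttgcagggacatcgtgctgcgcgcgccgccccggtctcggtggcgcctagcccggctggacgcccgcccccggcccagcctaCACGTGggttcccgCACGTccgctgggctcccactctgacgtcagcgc
Ldhb, chr6:142507958-142508207, minus strand: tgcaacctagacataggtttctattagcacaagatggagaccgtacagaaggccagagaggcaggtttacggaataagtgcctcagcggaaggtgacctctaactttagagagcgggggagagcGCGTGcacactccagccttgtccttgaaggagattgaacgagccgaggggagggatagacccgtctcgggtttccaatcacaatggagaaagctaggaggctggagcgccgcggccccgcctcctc
Pdk1, chr2:71872974-71873223, plus strand: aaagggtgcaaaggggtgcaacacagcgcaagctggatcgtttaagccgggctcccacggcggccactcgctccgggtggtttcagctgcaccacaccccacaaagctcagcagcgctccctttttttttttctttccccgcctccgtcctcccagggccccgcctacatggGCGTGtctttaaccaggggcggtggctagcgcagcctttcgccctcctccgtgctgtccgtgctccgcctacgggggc
Pfkp, chr13:6648778-6649021, minus strand: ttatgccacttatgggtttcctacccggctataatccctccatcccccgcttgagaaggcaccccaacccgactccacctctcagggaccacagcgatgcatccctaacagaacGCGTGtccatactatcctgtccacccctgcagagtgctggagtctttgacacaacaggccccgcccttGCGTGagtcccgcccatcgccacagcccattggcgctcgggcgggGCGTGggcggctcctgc
Hk2, chr6:82774455-82774704, minus strand: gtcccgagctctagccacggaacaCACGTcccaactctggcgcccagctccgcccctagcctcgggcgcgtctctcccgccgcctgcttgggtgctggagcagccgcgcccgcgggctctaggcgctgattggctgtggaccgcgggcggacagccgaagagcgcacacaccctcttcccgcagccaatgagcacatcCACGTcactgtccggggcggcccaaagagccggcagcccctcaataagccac
Mlxipl, chr5:135089640-135089889, plus strand: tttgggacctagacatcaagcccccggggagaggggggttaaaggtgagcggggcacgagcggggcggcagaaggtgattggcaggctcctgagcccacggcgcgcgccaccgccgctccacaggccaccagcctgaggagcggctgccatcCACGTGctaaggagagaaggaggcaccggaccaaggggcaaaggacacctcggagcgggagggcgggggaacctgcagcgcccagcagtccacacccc
Mlxipl, start inside the gene, chr5:135106641-135106890, plus strand: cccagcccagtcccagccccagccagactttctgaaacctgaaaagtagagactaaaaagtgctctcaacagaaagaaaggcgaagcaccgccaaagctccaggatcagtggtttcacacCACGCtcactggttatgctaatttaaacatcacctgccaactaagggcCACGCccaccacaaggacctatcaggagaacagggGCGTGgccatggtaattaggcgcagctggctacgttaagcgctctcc
Slc2a5, chr4:150119094-150119282, plus strand: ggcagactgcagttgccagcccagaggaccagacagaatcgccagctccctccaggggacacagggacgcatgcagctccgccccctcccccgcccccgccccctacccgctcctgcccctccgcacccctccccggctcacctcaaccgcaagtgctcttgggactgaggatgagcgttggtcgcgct
The core occurs at 3 positions in the Ldha sequence, in 2 of them as CACGTG, at 1 position in each of Ldhb and Pdk1, at 3 in Pfkp, at 2 in Hk2 and nowhere in Slc2a5. Mlxipl has 3 positions before the start inside the gene and 1, a CACGTG, before the other. Ldha and Pdk1 each have a second start that is not printed. Before that of Ldha the core occurs at 1 position, not as CACGTG, and before that of Pdk1 at 0.

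Over the 39 genes with a promoter entry (Slc2a3 and Epas1 had none), 34 or 87.2% held the core within 250 bases before a start, against 59.9% of the 10640 tested genes with an entry and 41.5% of all 27025 genes. By promoter it was 43 of 53 (81.1%), against 53.9% of 13617 promoters of tested genes and 38.6% of all 32851. 3 or more positions were found in 20.8% of these promoters and in 8.7% and 4.9% of the others in turn. Mean GC content was 60.8%, 59.3% and 53.2% in turn. The core itself holds a C followed by a G, and the frequency of that pair was not compared. These genes were picked for glycolysis and the hypoxia response, so their share of cores is no test. A match is a description of letters and not of binding.

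Microglia replicate 39 stood apart for these genes, a pattern noticed after the values were seen. It was the lowest of the 3 microglia libraries for 27 of the 40 genes tested (67.5%), against 35.42% of all 15151 genes, and 15 genes were lower there than in any of the 9 other libraries. The median level was 69.17% of the mean of replicates 40 and 41, against 100.4% over all genes. 13 genes were at or under 50% of that mean, among them Egln3 (13.5%), Slc16a3 (30.8%), Tpi1 (31.98%), Bnip3 (38.3%), Pgk1 (38.4%), Aldoa (41.3%), Slc2a1 (41.6%), Pkm (43.3%) and Ldha (49.6%). Of the genes called in parabiotic cells against microglia, Pfkl (44.4%) and Pgam1 (45.2%) were among them, while Slc2a6 was at 114% and Pdk1 at 88.1% of the mean. Replicate 41 was the highest of the 3 for 23 of the 40. For the counts of 15, 13 and 23 no share over all genes was computed, so whether they are unusual is not known. Without replicate 39, parabiotic cells against microglia gave 13 lower in place of 8, adding Slc2a1, Slc16a3, Hif1a, Egln1 and Bnip3, and 4 higher in place of 6, without Hk1 and Pgam1. The total counts of replicate 39 lay within the range of the other libraries, at 33605252.

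**Figure D4:**
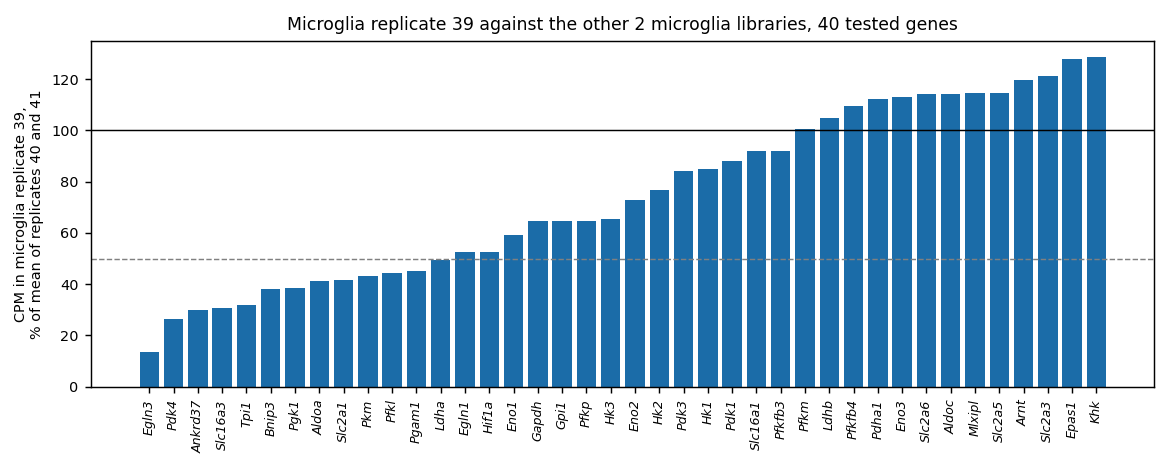
Level of each tested gene in microglia replicate 39 as a percent of the mean of replicates 40 and 41. The lines mark 100 and 50, and 13 bars from Egln3 to Ldha end at or below the lower line.

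For Slc2a5, Mlxipl, Ldhb and Pdk1 all transgenic libraries lay between the other groups, and so did the median of the microglia markers. For Hk2, Pfkl and Pfkfb3 at least 1 transgenic library fell into or below the parabiotic range, and Khk was lower in all transgenic than in all parabiotic libraries. The median level of the markers relative to microglia was 46.4%, 47.4%, 53.1% and 16.1% in replicates 23, 24, 26 and 27, and 5.19%, 6.57% and 8.86% in the parabiotic libraries. In the 4 transgenic libraries Slc2a5 was at 30.4%, 37.7%, 15.4% and 3.55% of the microglia mean. Mlxipl was at 40.2%, 56.1%, 33.8% and 8.80%, and Hk2 at 60.9%, 55.6%, 37.5% and 20.7%, so that all 3 were lowest in replicate 27, as the markers were. Ldhb stood at 48.1%, 48.8%, 70.0% and 36.8%, highest in replicate 26 like the markers, and Pdk1 at 58.2%, 59.9%, 59.7% and 40.8%. Pfkfb3 was at 65.4%, 74.0%, 42.9% and 60.0%, with replicate 26 rather than 27 lowest. Slc2a5, Mlxipl and Hk2 also were lower in replicate 26 than in replicates 23 and 24, while the marker median was highest there. Single markers in replicate 26 ran from 16.35% to 127.6%. The part of resident cells in the transgenic values was not tested.

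**Figure D5:**
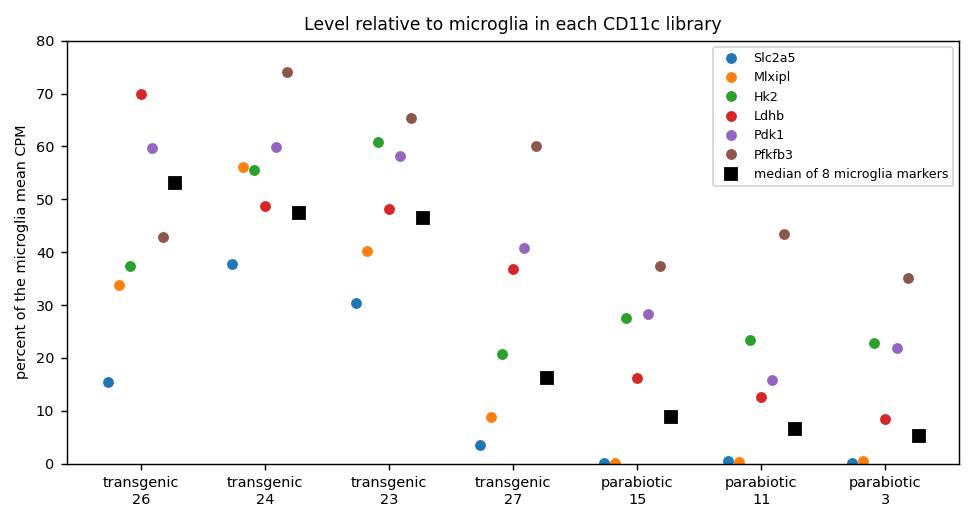
Level of 6 genes and the median of 8 microglia markers in each CD11c library, as a percent of the microglia mean. Transgenic replicate 27 is lowest of the 4 for the markers, Slc2a5, Mlxipl, Hk2, Ldhb and Pdk1, and the parabiotic libraries lie lower still for the markers, Slc2a5, Mlxipl and Ldhb.

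Genes of adjoining pathways are given for context, without those named already. Their lists were written for this tissue with earlier results of these data known, so the counts do not test the pathways. The background was 17.4% higher and 17.9% lower in parabiotic cells against microglia. It was 8.88% and 4.79% in transgenic cells against microglia, and 7.63% and 2.42% in transgenic against parabiotic cells. In parabiotic cells against microglia, 5 of 8 genes of the pentose phosphate pathway, which makes NADPH from glucose 6-phosphate, were higher and 0 lower by edgeR, with 0 lower also at an unadjusted p under 0.05 and by DESeq2 and limma-voom. The transaldolase gene Taldo1 rose by 1.60 ± 0.19 (edgeR adjusted p = 0.000101) and G6pdx, the entry enzyme, by 0.99 ± 0.16 (0.000619). Of 18 genes of the citrate cycle 8 were higher and 1 lower, with Mdh2 at 1.18 ± 0.18 and Fh1 at 0.98 ± 0.17. The medians of these lists were 0.64 and 0.46, against -0.02 over all genes.

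Among 11 other genes of pyruvate entry 3 were higher and 1 lower. Pdp1, the phosphatase that undoes the block set by Pdk1, rose by 1.81 ± 0.24 (edgeR adjusted p = 0.000194), from 7.34 ± 1.06 to 25.8 ± 1.72 CPM (SD, n = 3 each), while Pcx, pyruvate carboxylase, fell from 14.8 ± 1.18 to 1.40 ± 0.355 CPM (-3.40 ± 0.29, adjusted p = 1.27e-05). Other transport genes gave 1 higher and 4 lower of 9. The single rise was Emb, the embigin partner of monocarboxylate carriers, from 1.47 ± 0.534 to 303 ± 78.7 CPM (7.68 ± 0.81, adjusted p = 4.56e-05).

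The 30 other hypoxia-inducible targets tested split evenly, with 7 higher and 7 lower and a median of -0.10. Ndrg1 rose from 1.23 ± 0.142 to 42.4 ± 4.74 CPM (5.10 ± 0.37, edgeR adjusted p = 5.53e-06). Of 7 other oxygen-sensing genes 2 fell, among them Cited2, which competes with Hif1a for coactivators, by -1.55 ± 0.22. Glycogen and gluconeogenesis gave 4 higher and 2 lower of 12, with muscle phosphorylase Pygm at -3.56 ± 0.42 and Pck2 at -1.34 ± 0.19. Other sugar-sensing genes gave 2 higher and 3 lower of 12, among them the AMP kinase subunits Prkag2 at 1.93 ± 0.18 and Prkaa2 at -2.78 ± 0.65, the latter at 0.101 ± 0.0773 CPM in parabiotic cells. Other glycolytic isozymes gave 1 of 9 in each direction.

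Transgenic cells against microglia had fewer calls in these lists. The hypoxia-inducible targets gave 5 higher and 0 lower of 30 by edgeR, where 4 were lower at an unadjusted p under 0.05, 2 by DESeq2 and 1 by limma-voom, with a median of 0.32 against 0.02 over all genes. Ndrg1 rose by 3.62 ± 0.34 (edgeR adjusted p = 0.000133), and Vegfa, the vascular growth factor, by 2.97 ± 0.71 (0.0206), from 21.4 ± 18.5 to 167 ± 68.8 CPM, which was lost without microglia replicate 40 (0.0947). Citrate cycle genes gave 4 higher of 18 and the pentose phosphate pathway 2 higher of 8 by edgeR, and 0 were lower in either list, also at an unadjusted p under 0.05 and by DESeq2 and limma-voom. Txnip, the brake on glucose uptake that Mlxipl induces, fell from 572 ± 80.1 to 167 ± 29.3 CPM (-1.78 ± 0.18, adjusted p = 0.000202).

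In transgenic against parabiotic cells, edgeR called 0 of 18 citrate cycle genes, where 1 was higher and 3 lower at an unadjusted p under 0.05, and DESeq2 called 1 higher and 1 lower and limma-voom 0. The pentose phosphate pathway gave 2 lower of 8, Taldo1 at -0.70 ± 0.17 (edgeR adjusted p = 0.0268) and Pgls at -0.52 ± 0.14 (0.0433). Taldo1 lost its call without any one of the parabiotic libraries or transgenic replicates 23 and 24 (up to 0.133). Pgls did so too, and also without any one of the microglia libraries (up to 0.138). Ndrg1 was below its parabiotic level (-1.49 ± 0.28, edgeR adjusted p = 0.00623).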

How the data were processed

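RNA of fluorescent cells sorted without staining was amplified with SMART-Seq v4 and sequenced after NEBNext Ultra library preparation, from 1 or 5 ng of RNA, per the labels' protocols. The authors deposited whole-number counts per Ensembl gene. STAR 2.5.3a, FastQC 0.11.5 and DESeq2 are named with GRCm38 in the submitters' processing notes. The sources used here do not give the counting program, its annotation, its strand setting or its treatment of reads with several matches, so reads of genes that overlap on opposite strands cannot be told apart.

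Symbols came from GENCODE M21 (28492 of 28585 identifiers), and promoters from RefSeq. filterByExpr kept 15151 genes and removed 13434. TMM scaling (factors 0.96 to 1.05) gave CPM. All 10 libraries entered 1 quasi-likelihood fit with a mean per group (edgeR 4.0.16, R 4.3.3, robust dispersion, biological coefficient of variation 0.317). Tests were adjusted by Benjamini-Hochberg at 0.05 over all genes. At totals of 31534625 counts or more, the spread between replicates, rather than counting error, sets the precision of all but the lowest levels.

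Levels between genes are CPM per kilobase of union exon. All 41 genes were named by rule, and of each pathway list the 2 called genes with the largest fold change in each comparison. Not all of the latter are printed, and Eno4 and Slc16a8 were left out for their few counts. Members and lists were chosen with earlier results of these data known. The alternatives were RLE and upper quartile scaling, DESeq2 1.42.0, limma-voom (limma 3.58.1), no or a stricter filter (5 CPM in 3 libraries), 2 groups in the fit, a library number term, other lengths and each library left out. The fit was tested on simulated counts of 15151 genes, all with 1 common dispersion. The changed genes all rose, 100 by 2-fold and 100 by 4-fold. In the data the spread differs by gene, and 5347 genes were called in parabiotic cells against microglia. The rates found in the simulation therefore do not carry over to the data directly. In parabiotic against microglia, transgenic against microglia and transgenic against parabiotic cells, 8, 14 and 17 of 100 genes with a 2-fold change were found, 92, 98 and 93 of 100 with a 4-fold change, and 5, 5 and 8 unchanged genes were called.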

Additional observations from a re-analysis of the deposited data

Results flagged for a closer look

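In 4 of the 41 genes, 1 of the 4 transgenic libraries lay far from the other transgenic libraries by Dixon's criterion, in which the gap to the nearest library is divided by the whole range (tested at its 95% limit for 4 values). Replicate 27 was high for Eno2, at 11.1 CPM (0.904), and for Pdha1, at 89.1 CPM (0.921), and low for Pdk1, at 70.6 CPM (0.911). Replicate 24 was high for Egln1, at 73.5 CPM (0.889), over a range of 68.5 to 73.5 CPM. None of the 22 isozyme shares passed the limit. Chance alone passes this limit in about 5% of groups.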

How the results depend on the processing

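Of 29 calls of these genes over the 3 comparisons, 17 were kept in all 19 settings that gave a value, and 0 were reversed. The library number term ended all 7 calls of lower genes in transgenic cells against microglia, leaving 0, with 7 of the genes still lower at an unadjusted p under 0.05, and it gave 1303 genes called in place of 2070. Leaving transgenic replicates 26 and 27 out together, chosen after seeing the data, kept all 29 calls and gave 8334 genes called in parabiotic cells against microglia (5347 with all libraries). In transgenic against parabiotic cells it gave 3482 (1523 with all libraries) and 4 lower genes of the 40 in place of 1. DESeq2 called 3437 genes in transgenic cells against microglia and 2419 against parabiotic cells, where it called 3 of the 40 lower. With 2 groups in the fit, 1229 genes were called in transgenic cells against microglia, with 2 of the 40 lower, and 999 against parabiotic cells. Without a low-count filter, 4 of the 40 were lower in transgenic cells against microglia. The cause of these differences was not tested. Leaving out each library gave 3747 to 6458 genes called in parabiotic cells against microglia, with 3 to 7 of the 40 higher and 7 to 13 lower. It gave 746 to 2684 in transgenic cells against microglia, with 2 to 3 higher and 0 to 8 lower. In transgenic against parabiotic cells it gave 830 to 2510, with 4 to 7 higher and 1 to 3 lower. The 0 came without microglia replicate 39 or 40, where 13 and 9 were lower at an unadjusted p under 0.05. Bnip3 and Slc2a1, not called in parabiotic cells against microglia, were called lower there by DESeq2 (adjusted p = 0.0219 and 0.0406) and with the library number term (0.0441 and 0.0393). Other scalings moved the median of all genes by at most 0.082 on the log2 scale. Of 352 isozyme shares under other lengths or without a library, 68 moved by more than 1 SD. No paired analysis was possible because the groups share no replicate numbers.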
